A study of Oryza sativa with 4 samples.

Results

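On the 12 nuclear chromosomes of rice, 275279 pairs of neighbouring wild-type (WT) nucleosome summits lay closer together than the length of DNA wrapped around a nucleosome core, out of 1395419 neighbouring pairs (19.7%). These close pairs were selected on the measured positions of the WT summits: the nucleosomes with a WT summit were sorted by position on each chromosome, and every pair of neighbours under that limit, whose value in bp is stated with the processing steps, was taken. They held 484791 of the 1395431 WT summits of these chromosomes (34.7%), since 65767 summits belonged to 2 close pairs. The counts, distances and WT levels of the close pairs follow from that choice and are given as a description. Their WT fuzziness comes from the same map and is not independent of that choice. WT pairs between that limit and 250 bp apart (695614, here called spaced pairs) are given beside them, together with the close pairs found in the same way among the summits of the mutant *oschz1-1*.

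A nucleosome is a core of histone proteins with a fixed length of DNA wrapped around it, so neighbours whose centres lie closer than that length cannot both be fully wrapped on the same DNA molecule. Micrococcal nuclease (MNase) cuts the linker DNA between nucleosomes, and the fragments that survive are sequenced and pooled over all nuclei of a sample. A map of this kind can therefore list alternative positions taken in different cells or on different chromosome copies side by side. OsChz1 is a histone chaperone that binds dimers of H2A or its variant H2A.Z with H2B.

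MNase-seq was performed on seedlings of *oschz1-1* and WT (Nipponbare), with 2 libraries per genotype. *oschz1-1* carries a CRISPR/Cas9-induced deletion of a single nucleotide that creates a premature stop codon in OsChz1, and the plants were free of the transgene. Plants of both genotypes were sampled at an age of 30 days, under a day of 14 h light (30 °C) and 10 h dark (28 °C). The deposited table lists 1690300 nucleosomes with 1 value per genotype, made after the libraries had been merged, so no spread between samples is known, no p-value is given, and every difference below is between those merged maps. Read depth is not known from the table. Occupancy is a signal as given by the nucleosome caller DANPOS. How it was scaled between the genotypes is not given in the sources used here, and the median log2 ratio of *oschz1-1* to WT over all nucleosomes of these chromosomes was 0.000787 (a pseudocount of 1 is used in every log2 ratio here). Nuclei were taken from leaf material of the seedlings, which holds several cell types, and a change in each cell cannot be told apart from a change in the mix of cells.

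Close spacing was about as common in the mutant map. In *oschz1-1*, 286600 of 1409376 neighbouring pairs (20.3%) lay under the limit, against 19.7% in WT, and 504846 of 1409388 *oschz1-1* summits (35.8%) belonged to them, against 34.7% in WT. The share was higher in *oschz1-1* on each of the 12 chromosomes, by 0.303 to 0.955 percentage points. The smallest distance in both maps was 100 bp, found at 25996 pairs in *oschz1-1* and 25410 in WT. The median distance of a close pair was 125 bp in *oschz1-1* and 122 bp in WT. The distances had no break at the limit: 64882 *oschz1-1* and 62388 WT pairs lay in the last 7 bp under it, and 55930 *oschz1-1* and 55302 WT pairs in the first 7 bp from it upwards. Most positions stand on a grid of 10 bp, and 74.96% of close distances in *oschz1-1* and 76.5% in WT were multiples of 10 bp.

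**Figure D1:**
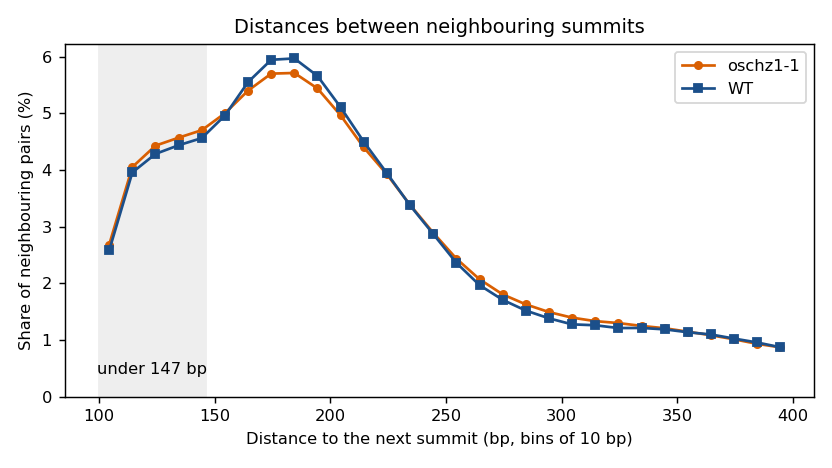
Share of all neighbouring summit pairs (%, vertical axis) by distance to the next summit (bp, bins of 10 bp) in *oschz1-1* (orange circles) and WT (blue squares), with distances of close pairs shaded. Both lines start at 100 bp, and the shaded bins hold 20.3% of pairs in *oschz1-1* and 19.7% in WT.

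Single pairs show what the table holds. Positions are those of the rice build MSU7, and what lies there in the annotation was not looked up because no annotation of that build was used. For each outcome in *oschz1-1*, a typical pair is given with the pairs of highest weaker WT value. These come from pairs that share no summit with another close pair, and pairs whose stronger WT value lies above a cap at the extreme top of all WT summit values (stated with the processing steps) were left out.

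Among pairs with both summits listed in *oschz1-1*, one on chromosome 2 had summits at 13638541 and 13638651, 110 bp apart. Its stronger summit had an occupancy of 41.5 in *oschz1-1* and 44.9 in WT, and its weaker summit 47.4 in *oschz1-1* and 44.1 in WT. In *oschz1-1* these summits were listed 170 bp apart, a distance at which both nucleosomes can be wrapped on the same molecule. On chromosome 10, the summits at 2954401 and 2954501 were 100 bp apart in WT and 250 bp apart in *oschz1-1*. The stronger of them had 51.5 in *oschz1-1* and 43.8 in WT, and the weaker 43.9 in *oschz1-1* and 43.2 in WT. The typical pair of this kind, at 4963683 and 4963811 on chromosome 10, changed its order. Its stronger WT summit had 11.8 in *oschz1-1* against 20.1 in WT, and its weaker one 20.8 in *oschz1-1* against 14.2 in WT.

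Where a single summit remained listed, the value at the missing one was not near 0 in any of the 6 examples. On chromosome 12, the pair at 20622051 and 20622161 kept its stronger summit, with 47.3 in *oschz1-1* and 37.0 in WT, while the weaker position had 28.4 in *oschz1-1* and 35.5 in WT. A second pair on chromosome 12, at 10698651 and 10698766, kept a stronger summit of 26.4 in *oschz1-1* and 35.2 in WT beside a missing one of 22.2 in *oschz1-1* and 35.1 in WT. The typical pair, at 28852831 and 28852953 on chromosome 6, kept its stronger summit at 16.8 in *oschz1-1* and 19.1 in WT, and the missing one had 8.28 in *oschz1-1* and 12.9 in WT.

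The weaker summit was the one kept at 39117241 and 39117351 on chromosome 1, with 42.2 in both *oschz1-1* and WT. Its missing stronger partner had 36.9 in *oschz1-1* and 44.0 in WT. On chromosome 9, the pair at 22930381 and 22930511 showed a larger difference. The missing stronger summit had 18.3 in *oschz1-1* and 41.3 in WT, and the kept weaker one 47.4 in *oschz1-1* and 39.7 in WT, with its *oschz1-1* summit at 22930601. The typical pair, on chromosome 7 at 22502341 and 22502461, lost a stronger summit of 9.58 in *oschz1-1* and 17.5 in WT and kept a weaker one of 12.7 in *oschz1-1* and 13.2 in WT.

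Pairs with neither summit listed in *oschz1-1* had lower values there at both positions. On chromosome 3, the stronger summit at 717781 had 20.3 in *oschz1-1* and 29.0 in WT, and the weaker one at 717641 had 13.5 in *oschz1-1* and 28.3 in WT. On chromosome 1, the stronger summit at 18567091 had 17.7 in *oschz1-1* and 27.1 in WT, and the weaker one at 18566981 had 13.8 in *oschz1-1* and 26.8 in WT. The typical pair, on chromosome 2, had 3.30 in *oschz1-1* and 15.3 in WT at 2141616, and 5.48 in *oschz1-1* and 11.99 in WT at 2141491. Without that cap, of all WT pairs at the smallest distance of 100 bp, the highest weaker value belonged to the summits at 11938821 and 11938921 on chromosome 7. The stronger had 20.0 in *oschz1-1* and 66.8 in WT, the weaker 30.2 in *oschz1-1* and 56.9 in WT, and both were listed in *oschz1-1*, 250 bp apart.

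The summits of a close pair were about as evenly occupied as those of a spaced pair. Balance, the lower WT value divided by the higher, had a median of 0.759 in close pairs (quartiles 0.627 and 0.879) and 0.760 in spaced pairs (0.626 and 0.879). It was at least 0.8 in 41.5% of close and 41.8% of spaced pairs, and less than 0.5 in 8.07% of close and 8.60% of spaced pairs. The least even close pair had a balance of 0.198. In the mutant's own map the median balance was 0.758 in close and 0.759 in spaced pairs. Within the close pairs, the median rose with distance, being 0.734 for distances of 100 bp to under 110 bp, 0.750 from 110 bp, 0.762 from 120 bp and 0.768 in both of the widest bins, which start at 130 and 140 bp. WT levels were lower in close pairs, where the stronger summit had a median of 19.2 and the weaker 13.5, against 20.2 and 14.3 in spaced pairs.

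The summed occupancy of a close pair had a median of 30.4 in *oschz1-1* and 33.1 in WT, and the median log2 ratio was −0.15. For spaced WT pairs it was 32.6 in *oschz1-1* and 34.98 in WT (median log2 ratio −0.12). The difference changed direction with the map in which the pairs were chosen. Close pairs chosen in *oschz1-1* had a summed occupancy of 32.9 in *oschz1-1* and 30.4 in WT (median log2 ratio 0.14). The order of the summits was exchanged in *oschz1-1*, with the nucleosome of the weaker WT summit holding the higher value, in 38.3% of close pairs (105196) and 37.8% of spaced pairs. The exchange went with listing in *oschz1-1*, but both are read from the same map, so its shares by listing are a description. In close pairs it was found in 40.2% with both summits listed, 1.38% with the stronger only, 97.1% with the weaker only and 44.4% with neither. In spaced pairs these shares were 38.9%, 1.55%, 96.0% and 43.4%. In near-equal pairs, with a balance of at least 0.9, the order was exchanged in 47.9% of close and 48.2% of spaced pairs. Where the balance was under 0.5, it was exchanged in 20.0% of close and 18.6% of spaced pairs.

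Close pairs had both summits listed in *oschz1-1* less often than spaced pairs did in these maps. The smallest distance in either map was 100 bp, so both summits of a close pair could be listed only if they drew little nearer. The part of this in the difference was not tested. A summit counts as listed where the same nucleosome has a summit in the other genotype, which need not be at the same position. Both were listed at 128747 close pairs (46.8%), against 68.9% of spaced pairs. Exactly 1 summit was listed at 134341 close pairs (48.8%), against 28.5% of spaced pairs, and neither at 12191 (4.43%), against 2.68% of spaced pairs. Close pairs of *oschz1-1* summits, looked up in WT, gave nearly the same shares, with both listed in 46.4% and neither in 4.91%. Counted by summit, 72.8% of those in close WT pairs (352990) were listed in *oschz1-1*, against 83.8% of the other WT summits. For summits in close *oschz1-1* pairs, 72.3% were listed in WT, against 83.0% of the other *oschz1-1* summits.

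Where a single summit was listed in *oschz1-1*, it was mostly the stronger WT one. It was the stronger summit at 85835 close pairs and the weaker at 48506, so 63.9% kept the stronger, against 65.2% in spaced pairs and 64.2% for close *oschz1-1* pairs looked up in WT. The choice followed the balance. The stronger summit was the one kept in 83.8% of pairs with a balance under 0.5, in 75.1% at 0.5 to 0.6, 68.2% at 0.6 to 0.7, 62.9% at 0.7 to 0.8, 57.4% at 0.8 to 0.9 and 52.2% at 0.9 to 1. In spaced pairs it ran between 87.5% and 52.0% over the same bins. The share of close pairs with both summits listed did not follow the balance and was 46.1% to 47.3% in all 6 bins.

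**Figure D2:**
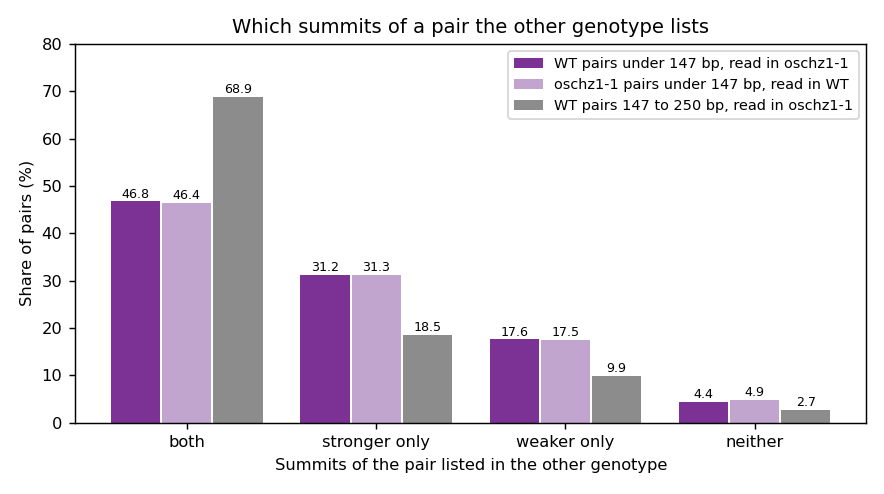
Share of pairs (%, vertical axis, from 0) by which of the summits the other genotype lists, for close WT pairs looked up in *oschz1-1* (dark purple), close *oschz1-1* pairs looked up in WT (light purple) and spaced WT pairs looked up in *oschz1-1* (grey). Both sets of close pairs have both summits listed in 46.8% and 46.4% of pairs, against 68.9% of spaced WT pairs.

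The share with both summits listed in *oschz1-1* increased with distance and had no step at the limit. In bins of 10 bp it was 34.4% from 100 bp, 40.2% from 110 bp, 45.9% from 120 bp, 51.0% from 130 bp and 56.4% between 140 bp and the limit. Beyond the limit it was 61.3% in the bin from 150 bp and reached 71.9% in the bin from 200 bp. In the last 2 bp inside the limit, 12642 pairs had both summits listed in 56.9%, a median balance of 0.766 and a median lower WT value of 13.2. In the first 4 bp outside it, 53999 pairs had both listed in 61.1%, a median balance of 0.767 and a median lower WT value of 14.1. The share that kept the stronger summit stayed between 63.1% and 65.1% over the 5 distance bins of close pairs.

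**Figure D3:**
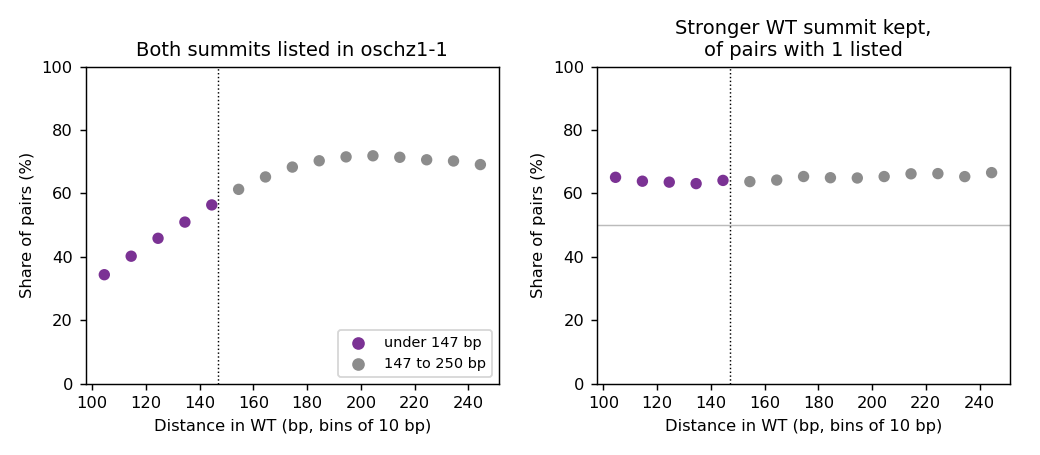
Share of WT pairs (%, vertical axes) by their distance in WT (bp, bins of 10 bp), for pairs with both summits listed in *oschz1-1* (left) and for the stronger WT summit being the one kept (right, of pairs with 1 listed), with the limit of close pairs dotted. The left share is 34.4% in the bin from 100 bp and 71.9% in the bin from 200 bp, while the right share is 63.1% to 65.1% in the close bins.

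Level and crowding also went with the outcome. In the 4 bands of lower WT value set by the quartiles of close pairs (11.6, 13.5 and 16.2), low to high, both summits were listed in 36.3%, 42.1%, 49.0% and 59.5% of close pairs, against 54.4%, 61.0%, 69.5% and 81.9% of spaced pairs. The close pairs were below the spaced pairs in each band. Of close pairs that shared no summit with another close pair (161215, 58.6%), 53.2% had both summits listed, against 37.6% of those that did share one.

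A summit not listed in *oschz1-1* still had signal at its place. Where the stronger WT summit was the one kept, the missing weaker position had a median of 8.28 in *oschz1-1* and 12.98 in WT (median log2 ratio −0.63), and the kept one 18.3 in *oschz1-1* and 19.2 in WT. Where the weaker was kept, the missing stronger position had 8.94 in *oschz1-1* and 17.7 in WT (−0.89), and the kept one 16.7 in *oschz1-1* and 13.3 in WT (0.28). Where neither was listed, the stronger position had 7.19 in *oschz1-1* and 15.8 in WT, and the weaker 6.76 in *oschz1-1* and 11.99 in WT. Where both were listed, the stronger had 17.9 in *oschz1-1* and 20.0 in WT, and the weaker 16.2 in *oschz1-1* and 14.3 in WT. These outcomes are defined by the *oschz1-1* map, so lower values at its missing summits describe them and are no separate result.

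The summit that remained listed was displaced towards its missing partner more often than away. These pairs are defined by a partner without an *oschz1-1* summit, so the direction is not independent of that choice and is a description. How the caller assigns a summit to a nucleosome is not given in the sources used here. The listed summit lay towards the partner in 54.9% of close pairs with 1 listed, away in 34.5% and in place in 10.6%, against 52.2%, 37.1% and 10.8% of spaced pairs. Displacements of 35 to 54 bp pointed towards the partner in 18.9% of these close pairs and away in 7.21%, against 12.1% towards and 8.05% away in spaced pairs. That band lies at the upper end of the range in close pairs, where the largest displacement towards the partner was 72 bp, against 98 bp in spaced pairs. All displacements of 35 bp or more pointed towards the partner in 25.1% of close and 25.7% of spaced pairs, and away in 13.1% and 14.2%. The *oschz1-1* summit lay within 20 bp of the midpoint of the pair at 29830 close pairs (22.2%) and in 6.13% of spaced pairs, whose midpoint is farther from either summit. It was within 20 bp of the midpoint in 26.2% of close pairs that kept the weaker summit and 19.9% of those that kept the stronger. Looked up the other way, the single WT summit was within 20 bp of the midpoint of a close *oschz1-1* pair in 22.0%. For comparison, 48.3% of the kept summits of close pairs and 47.9% of those of spaced pairs lay within 20 bp of their own WT position.

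**Figure D4:**
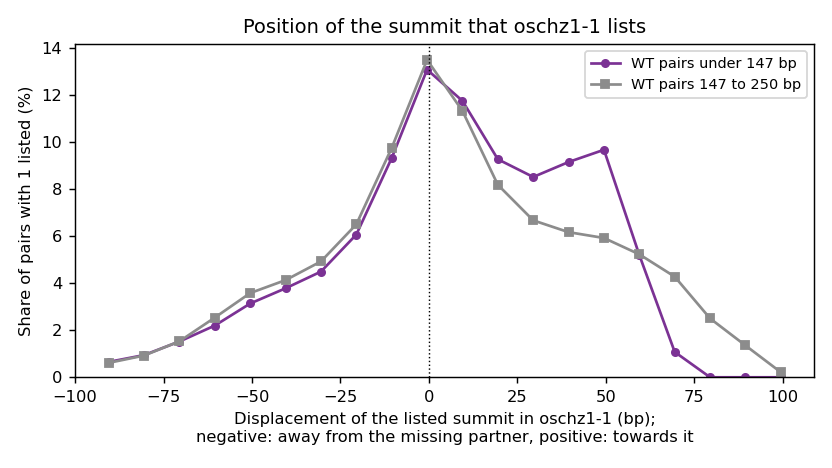
Share of pairs with 1 summit listed in *oschz1-1* (%, vertical axis) by its displacement from its WT position (bp, positive towards the missing partner), for close WT pairs (purple circles) and spaced WT pairs (grey squares). Both lines peak at 0, and close pairs have a second rise at 35 to 54 bp towards the partner, which holds 18.9% of them against 7.21% on the opposite side. Displacements towards the partner end at 72 bp in close pairs and at 98 bp in spaced pairs.

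Where both summits were listed, they were mostly farther apart in *oschz1-1*. The median spacing was 150 bp in *oschz1-1* and 130 bp in WT, and it was wider in *oschz1-1* in 75.5% of these pairs, narrower in 18.3% and equal in 6.22%. The median change was 30 bp (quartiles 5 and 60). Spaced pairs had a median of 190 bp in both genotypes and a median change of 0 bp (quartiles −30 and 30). Close *oschz1-1* pairs with both summits listed in WT had 130 bp in *oschz1-1* and 155 bp in WT, and 76.4% were wider in WT. The widening thus ran towards whichever map was not used to choose the pairs. No summits of either map lay closer than 100 bp, so pairs chosen under the limit had little room to narrow. The same pair of nucleosomes was close in both maps at 54986 places, 19.2% of close *oschz1-1* pairs and 20.0% of close WT pairs. Summits of close pairs that were listed in *oschz1-1* stood a median of 25 bp from their WT position, against 20 bp for the other WT summits.

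Irrespective of which nucleosome of the table a summit was assigned to, most close pairs had a single *oschz1-1* summit in their stretch. Between 50 bp before the first summit and 50 bp after the second, *oschz1-1* had 0 summits at 7.78% of close pairs, 1 at 58.9% (162045), 2 at 33.2% (91454) and 3 at 0.131%. In the longer stretches of spaced pairs it had 0 at 3.84%, 1 at 33.4%, 2 at 59.9% and 3 at 2.86%. Stretches of the same length away from close pairs were not counted, so these shares cannot be set against what such a length holds by itself. WT summits around close *oschz1-1* pairs gave 8.23%, 58.8%, 32.8% and 0.137%.

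Fuzziness, the spread of fragment positions around a summit, was higher at the members of close pairs than at the other WT summits. Members were chosen for a near neighbour in the same WT map, so their fuzziness is not independent of that choice and is a description. Their median score was 55.7 in *oschz1-1* and 56.2 in WT, against 53.0 in *oschz1-1* and 51.6 in WT at the other WT summits. The median difference of *oschz1-1* minus WT was −0.26 at the members and 1.504 at the other WT summits. These medians pool positions listed and not listed in *oschz1-1*. At the members the difference was −1.44 where listed and 3.54 where not, and at the others 0.80 and 6.35. Fuzziness was higher in *oschz1-1* at 48.1% of members and at 61.2% of the others. The pooled median differences turned round with the map in which the summits were chosen: they were 0.24 at the members of close *oschz1-1* pairs and −1.32 at the other *oschz1-1* summits. In WT the members were fuzzier in each of 4 bands of WT occupancy set by its quartiles (13.3, 16.5 and 20.8), low to high, with medians of 58.5, 57.0, 55.6 and 53.5 against 53.4, 52.4, 51.5 and 49.4 at the others. Over the same bands the members' median difference of *oschz1-1* minus WT was −1.54, −0.74, 0.07 and 1.14, so its sign depended on WT occupancy. By distance to the nearest WT summit, the WT median fell step by step over the close bins, being 57.3 in the bin from 100 bp and 54.9 in the bin from 140 bp, and among the bins plotted it was lowest between 180 and 200 bp (50.9).

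Within pairs, the weaker summit was the fuzzier one. In WT its median score was 58.7 and that of the stronger summit 54.7, and the weaker was fuzzier in 78.9% of close pairs and 71.5% of spaced pairs. WT fuzziness was highest at summits that belonged to 2 close pairs, with a median of 59.6 against 55.7 at those in 1. Members listed in *oschz1-1* had a median of 54.4 in *oschz1-1* and 55.8 in WT. Members not listed there had 61.0 in *oschz1-1* and 57.2 in WT. Among the other WT summits, listed ones had 52.2 in *oschz1-1* and 51.5 in WT, and unlisted ones 58.7 and 52.2. Listing is defined by the *oschz1-1* map, so higher *oschz1-1* scores at unlisted positions describe that split and are no separate result. Split by the outcome in *oschz1-1*, the WT scores were nearly alike, with medians of the stronger summit between 54.4 (both listed) and 55.7 (weaker kept).

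**Figure D5:**
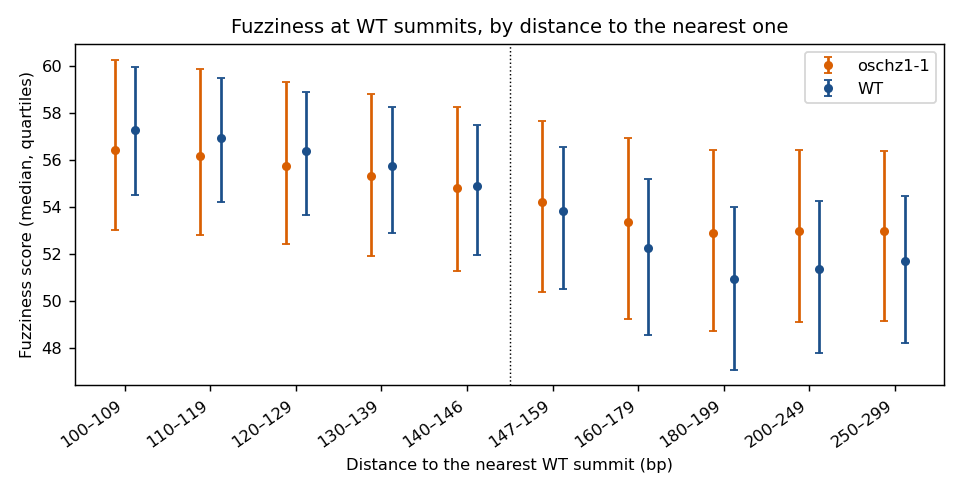
Median fuzziness score (vertical axis, not from 0; bars are quartiles over nucleosomes) at WT summits by distance to the nearest WT summit (bp), in *oschz1-1* (orange, left) and WT (blue, right), with the limit of close pairs dotted. The WT median is above that of *oschz1-1* in the closest bins and below it beyond the limit.

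Changes of 2-fold or more between the merged maps were mostly decreases among the members, as they were among all WT summits. Occupancy was at least 2-fold lower in *oschz1-1* at 50619 members (10.4%), against 9.42% of all 1395431 WT summits. It was at least 2-fold higher at 4895 members (1.010%), against 0.918% of all WT summits. These shares lie near the background. Summits chosen in *oschz1-1* had the opposite balance, with 10.6% of the members of its close pairs at least 2-fold higher there and 1.12% at least 2-fold lower, against 9.06% and 1.005% of the other *oschz1-1* summits. Of the WT members lower by this measure, 46508 were not listed in *oschz1-1*, which is 35.3% of all unlisted members, against 47.6% of the other unlisted WT summits. Both summits were lower by this measure at 3102 close pairs (1.13%), against 0.783% of spaced pairs, and they moved in opposite directions at 557 (0.202%), against 0.154% of spaced pairs. The stronger summit was at least 2-fold lower in 11.4% of close pairs and the weaker in 9.82%, against 9.19% and 8.11% in spaced pairs. The weaker was at least 2-fold higher in 1.74% of close pairs and the stronger in 0.316%, against 1.58% and 0.272% in spaced pairs.

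Close pairs often joined into runs. Chains of summits, each within the limit of the next, numbered 218246 in *oschz1-1* and 209512 in WT, and 76.9% of them held 2 summits in both maps. Chains of 5 or more summits numbered 3424 in *oschz1-1* and 3358 in WT, and the longest had 11 summits in *oschz1-1* and 15 in WT. A WT chain of 15 summits ran along chromosome 3 between 3262641 and 3264411, with gaps of 105 to 140 bp. Its positions had 7.87 to 38.5 in *oschz1-1* and 11.4 to 29.2 in WT, and 10 of them were listed in *oschz1-1*. The other chain of 15, on chromosome 6 between 25937621 and 25939351, had gaps of 100 to 142 bp, with 6.08 to 27.7 in *oschz1-1* and 10.9 to 25.8 in WT, and 12 were listed in *oschz1-1*.

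WT close pairs that share no summit with another close pair have, by that choice, no outer neighbour under the limit. Their next summit outside was a median of 230 bp away (quartiles 190 and 312), against 215 bp (180 and 310) for the spaced pairs that also had no outer neighbour under the limit. The summits on either side of the pair stood a median of 610 bp apart around such close pairs and 665 bp apart around such spaced pairs. Around any WT summit, members of close pairs included, its neighbours stood a median of 425 bp apart.

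Close pairs were spread over the genome. They made up 19.8% to 20.7% of neighbouring *oschz1-1* pairs and 19.3% to 19.9% of neighbouring WT pairs on 11 chromosomes, and 21.6% in *oschz1-1* and 20.8% in WT on chromosome 7. In 376 bins of 1 Mb the share was 16.3% to 24.8% in *oschz1-1* and 16.5% to 23.8% in WT, and it was higher in *oschz1-1* in 275 bins (73.1%). On chromosome 7 fewer summit positions lay off the 10 bp grid, 1.26% in *oschz1-1* and 1.21% in WT, against 14.996% to 15.5% in *oschz1-1* and 14.3% to 14.8% in WT on the other chromosomes. The part of this in the higher share on chromosome 7 was not tested. Without chromosome 7, 20.2% of neighbouring *oschz1-1* pairs and 19.6% of WT pairs were close, both summits were listed in *oschz1-1* in 46.7% of close WT pairs, and 63.8% kept the stronger.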

How the data were processed

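MNase-seq libraries of *oschz1-1* and WT seedlings, 2 per genotype, were used. The authors mapped paired reads to MSU7 with Bowtie2 v2.3.4.1, filtered them by mapping quality and for possible duplicates, and ran DANPOS, whose options are not given in the sources used here. The deposited table of 17 columns holds 1 value per genotype, so the libraries cannot be compared with each other, and 0 columns of values were left unmapped. Occupancy was deposited by the authors as a signal whose scaling between genotypes is not given in the sources used here, and fuzziness as a score. Summit positions are deposited MSU7 coordinates. The control columns were taken as WT and the treated columns as *oschz1-1*, as the study set the mutant against WT. The authors' deposited columns of −log10 p, of p-value-based FDR and of the values at points of largest difference hold their own comparison and were not used, although calls by that FDR had been planned. A log2 ratio past 1 with a pseudocount of 1 took their place.

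The nucleosomes of the 12 nuclear chromosomes were sorted by summit position in each genotype, and neighbouring summits less than 147 bp apart were taken as close pairs and those 147 to 250 bp apart as spaced pairs. A summit counted as listed where the same line of the table gives a summit of the other genotype. The members and measures were chosen with earlier results of these data known. Named pairs were, for each outcome, the 2 with the highest weaker WT value (stronger value not above percentile 99.9, no shared summit) and the 1 nearest to the medians of the outcome, and the pairs at the smallest distance with the highest weaker value (of these the second is the chromosome 10 pair already named). Alternatives were narrower limits, filters on low values, unshared pairs, other definitions of the stronger summit and of listing, and left-out chromosomes. The pair finding was tested on simulated data, in which 700 of 700 pairs were found. Python 3.11.15, numpy 2.4.6, pandas 2.3.3 and matplotlib 3.10.9 were used. The precision of the values cannot be stated, since the libraries were merged and depth is not known.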

Additional observations from a re-analysis of the deposited data

How the results depend on the processing

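No paired analysis was possible because the table holds 1 merged value per genotype, and for the same reason no replicate could be left out. The planned calls by FDR and by the point value were not run, because they rest on the authors' own comparison. A narrower limit leaves fewer pairs by construction. Under limits of 120 and 130 bp there were 94913 and 157325 close pairs in *oschz1-1* and 91232 and 150999 in WT. With both values at or above the lower quartile there were 152225 in *oschz1-1* and 146431 in WT, and without shared summits 167864 in *oschz1-1* and 161215 in WT. Both summits were listed in *oschz1-1* in 37.9%, 41.1% and 43.9% of pairs under limits of 120, 130 and 140 bp, in 53.7% above the quartile, in 53.2% without shared summits and in 32.4% where any *oschz1-1* summit within 50 bp counted. The stronger was kept in 64.4% under 120 bp, 61.8% above the quartile and 75.4% where it was at least 1.5 times the weaker. Median balance was 0.744, 0.751 and 0.756 under 120, 130 and 140 bp, 0.805 above the quartile, 0.762 without shared summits, 0.772 with a pseudocount of 1 and 0.760 without chromosome 7. Median WT fuzziness was 57.1, 56.8 and 56.5 under 120, 130 and 140 bp, 56.1 above the quartile and 55.6 without shared summits. Members numbered 117090 lower and 38647 higher in *oschz1-1* past a log2 ratio of 0.58, and 4638 lower and 0 higher past 2. Leaving out chromosomes 10 and 11, as planned, moved no count of pairs by more than 1.5 times and no share or median beyond its counting interval. That interval treats pairs or summits as independent and holds no spread between samples. The fold limits and leaving out chromosome 7 were chosen after the data had been seen.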

Other observations

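Chromosome 7 also stood apart in the order of summits within close WT pairs. The stronger summit came first along the chromosome in 51.5% of its close pairs, against 47.1% to 48.0% on the other chromosomes. In spaced WT pairs the share was 49.7% on chromosome 7 and 50.04% to 50.6% on the others. Median balance in close pairs was 0.747 on chromosome 7 and 0.757 to 0.764 elsewhere, and 11.7% of its close pairs were exactly 100 bp apart, against 8.52% to 9.44% elsewhere. Among pairs with 1 summit listed, it was in place in 13.1% on chromosome 7 and in 9.80% to 10.9% on the others. Over all chromosomes, the stronger summit came first in 47.9% of close pairs and 50.3% of spaced pairs, and by distance the share was 44.1% in the bin from 100 bp, 44.4% from 110 bp, 48.9% from 120 bp and from 130 bp, and 51.1% between 140 bp and the limit.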
